A study of Mus musculus with 8 samples.

Results

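The genes of the tumor necrosis factor (TNF) superfamily, which are its ligands, its receptors and the adaptor proteins that carry the receptors' signal, were compared between 4T1-Sca1+ and 4T1-Sca1- cells. Members were taken by name. They were the protein-coding genes whose mouse symbol starts with Tnfsf, Tnfrsf or Traf followed by a digit, together with Tnf, Lta, Ltb, Ltbr, Fas, Fasl, Cd40, Cd70, Eda, Eda2r, Edar, Ngfr, Tradd, Fadd and Ripk1. There were 56 such genes, of which 52 were among the 16341 genes counted, and 35 had enough reads to be tested. Tnfsf11, Tnfrsf13b, Tnfrsf17 and Traf3ip3 were not analysed here.

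4T1 is a mouse mammary carcinoma cell line, and SCA1, encoded by Ly6a, is a surface protein by which its cells can be separated. Both groups came from the parental 4T1 line according to the source label, were stained with a PE-coupled antibody and were separated on MACS magnetic columns, with no other treatment or genotype given. A second label describes the sort gates as CD45-Sca1+ and CD45-Sca1-, and the protocol names 4T1 tumor as the stained material, so whether cultured or tumor cells were sorted is not settled by the labels. RNA of 4 libraries per group was sequenced, all from a single cell line, and because nothing says that the libraries came from separate sorts, p-values measure the spread between these libraries, which may be technical.

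TNF superfamily ligands are trimeric proteins, most of them anchored in the membrane of the cell that makes them, and each binds one or a few receptors on the same or a neighbouring cell. Some receptors with an intracellular death domain, among them those encoded by Tnfrsf1a and Fas, recruit Tradd or Fadd and can start caspase-dependent death. Signalling receptors without this domain bind TRAF proteins and activate NF-kappaB and stress kinases. Decoy receptors bind ligand without passing on a full signal. In the mammary gland and in carcinoma cells, members of the family are known for roles in inflammation, survival and cell death.

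Total counts ran from 13561804 to 16968215 per library and 13777 to 14352 genes were detected in each. Levels are given as normalized counts, which are counts divided by a size factor of the library. Ly6a followed the labels, at 167 ± 20.2 in 4T1-Sca1+ and 1.79 ± 1.73 in 4T1-Sca1- cells (SD, n = 4 each). All 8 epithelial markers were present, and their summed level was 59814 to 65970 in 4T1-Sca1+ and 62202 to 67273 in 4T1-Sca1- libraries. The sum hides opposite directions at an adjusted p under 0.05 (edgeR). Krt8 and Krt18 were higher in 4T1-Sca1+ (log2 fold change 0.31 and 0.38). Krt7 (-0.20), Cldn3 (-0.37), Cldn4 (-0.62) and Cdh1 (-0.69) were lower, and Epcam and Krt19 did not pass. Of 22 leukocyte markers, 18 were at 10 or fewer counts in every library or not among the genes counted, among them Ptprc, which encodes CD45. The sum of the leukocyte list was nevertheless 411 to 478 against 232 to 274, with S100a8, Csf1r, Cd74 and Cd68 as the markers above 10 counts. The sum of 10 fibroblast markers was 637 to 674 against 395 to 468, and most of it was Pdgfra. The endothelial list of 8 markers summed to 34.7 to 43.9 against 43.4 to 66.2. The part of these lists in the differences below was not tested, and in bulk RNA fewer cells of a kind and less RNA per cell cannot be told apart.

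Of the 35 members tested, 14 passed as higher in 4T1-Sca1+ cells and 5 as lower (edgeR's quasi-likelihood test, with p-values adjusted over all genes tested and called under 0.05). The called members made up 54.3% of those tested, against 61.5% of all 11717 genes tested, of which 31.3% were higher and 30.2% were lower. The number of differences among the members was therefore near, and somewhat below, the background. The direction was uneven, with 40% of tested members higher and 14.3% lower. Called differences of at least 0.5 on the log2 scale were found in 14 members, 11 of them higher, which was 40% of those tested against 20.5% of all genes. Of the 2400 genes at this cut among all tested, 1666 were higher and 734 lower, so most were higher there too. The groups did not overlap in 19 members (54.3%), against 54.7% of all genes. The median log2 fold change of the members was 0.12, and that of all tested genes was 0.0074. Together the members held 0.22% to 0.233% of the counts of a 4T1-Sca1+ library and 0.198% to 0.208% of those of a 4T1-Sca1- library.

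**Figure D1:**
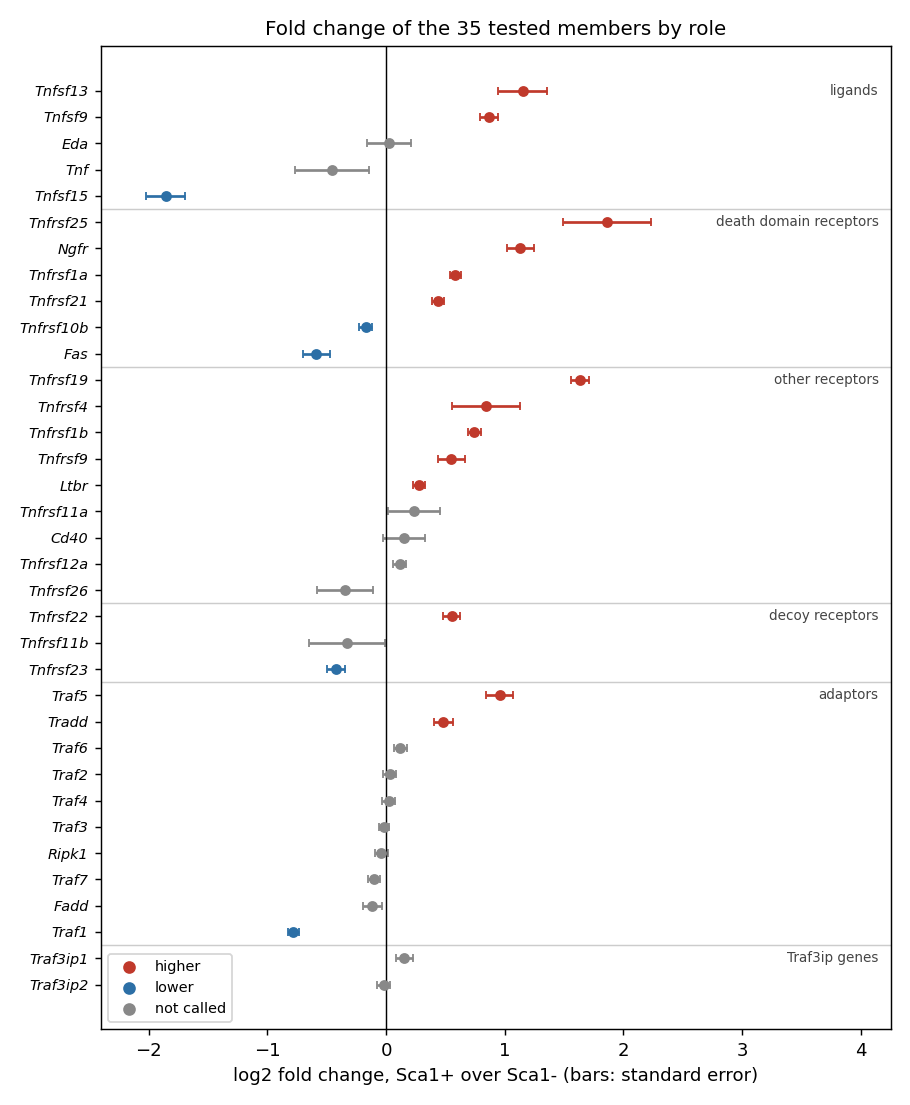
Log2 fold change (4T1-Sca1+ over 4T1-Sca1-) of the 35 tested members on the horizontal axis, grouped by role, with bars for the standard error and colour for the call at an adjusted p under 0.05. All 6 death domain receptors tested were called, 4 higher and 2 lower, and 30% of the 10 adaptors were called, against 61.5% of all genes. The other 7 adaptors sat close to 0.

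Receptors held most of the called members. Of 18 tested, 10 were higher and 3 were lower, a share of 72.2% against 61.5% of all genes, and their median log2 fold change was 0.36. The higher receptors were 55.6% of those tested, against 31.3% of all genes, and the difference from the other genes was not tested. The adaptors had a median of 0.0046, with 2 higher and 1 lower of 10 tested (30% called, below the 61.5% of all genes). Ligands were mostly near the floor of detection, with 5 of 17 tested, and of these 2 were higher and 1 was lower (60% called, about the 61.5% of all genes).

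Among the ligands, Tnfsf15 showed the largest fall. Tnfsf15 (also named TL1A, ENSMUSG00000050395, GRCm38 chromosome 4, 63727084 to 63745113) encodes the ligand of the death domain receptor encoded by Tnfrsf25. Its normalized counts were 54.8, 71.0, 36.9 and 56.0 in the 4T1-Sca1+ libraries and 212, 155, 248 and 187 in the 4T1-Sca1- libraries. The lowest 4T1-Sca1- library lay well above the highest 4T1-Sca1+ library, and the log2 fold change was -1.86 ± 0.16 (SE, adjusted p = 3.57e-08, edgeR).

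The receptor gene Tnfrsf25 (DR3, ENSMUSG00000024793, chromosome 4, 152115934 to 152120119) moved the other way. It was counted at 11.9, 17.8, 29.9 and 14.9 in 4T1-Sca1+ and at 4.78, 6.16, 4.45 and 4.57 in 4T1-Sca1- libraries. Every 4T1-Sca1+ library was above every 4T1-Sca1- library, although the gene was scarce and the 4T1-Sca1+ libraries differed widely among themselves. In raw counts it had 78 over the 4T1-Sca1+ and 19 over the 4T1-Sca1- libraries, with at most 6 in any 4T1-Sca1- library. It thus passed the low-count filter through the 4T1-Sca1+ libraries alone, so its separation and adjusted p are not independent of that filter. The log2 fold change was 1.86 ± 0.37 (SE, adjusted p = 0.000293, edgeR). Per kb of exon, the ratio of Tnfsf15 to Tnfrsf25 within a library was 2.32 ± 1.01 in 4T1-Sca1+ and 28.3 ± 8.59 in 4T1-Sca1- cells (SD, n = 4). The 4T1-Sca1- ratio rests on 6 or fewer counts of Tnfrsf25 per library. This ratio and the others below were picked after their values were seen and carry no test.

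Tnfsf9 and Tnfsf13 were the ligands that rose. Tnfsf9 (4-1BB ligand, a costimulator of T cells, chromosome 17, 57105325 to 57107757) had normalized counts of 383, 448, 454 and 415 in 4T1-Sca1+ and 236, 220, 236 and 249 in 4T1-Sca1- libraries. The groups did not overlap, and the log2 fold change was 0.87 ± 0.07 (SE, adjusted p = 2.4e-08, edgeR). Tnfsf9 shares 192 bp of exon with Gm11110 on the opposite strand, whose level was 66.3 ± 10.4 against 62.2 ± 6.47 (SD, n = 4, adjusted p = 0.527, edgeR). Its receptor gene Tnfrsf9 (4-1BB, also named CD137) was higher as well, at 97.8, 91.7, 104 and 88.4 against 66.9, 62.6, 67.9 and 65.1. The log2 fold change of Tnfrsf9 was 0.55 ± 0.11 (SE, adjusted p = 0.000443, edgeR). Ligand and receptor therefore rose together here, and the ratio of Tnfsf9 to Tnfrsf9 per kb was 9.42 ± 0.89 in 4T1-Sca1+ and 7.56 ± 0.34 in 4T1-Sca1- cells.

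Tnfsf13 (APRIL, a factor for B lineage cells, chromosome 11, 69682846 to 69685784) was counted at 43.0, 34.5, 59.8 and 49.0 in 4T1-Sca1+ and 18.1, 19.5, 22.3 and 25.1 in 4T1-Sca1- libraries. The groups were apart, with a log2 fold change of 1.15 ± 0.21 (SE, adjusted p = 0.000107, edgeR). Its value is uncertain as to the transcript, since 57.3% of its 50-base stretches also occur in the read-through gene Tnfsfm13, which joins Tnfsf12 to Tnfsf13. Tnfsf12 itself had 0 counts in 4T1-Sca1+ and 1 count in 4T1-Sca1- libraries.

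Tnf itself had few reads. Its normalized counts were 7.31, 4.93, 9.97 and 8.75 in 4T1-Sca1+ and 9.55, 12.3, 11.1 and 10.3 in 4T1-Sca1- libraries. The groups overlapped, and the log2 fold change of -0.46 ± 0.31 (SE) was not called (adjusted p = 0.223, edgeR). Eda, the ligand ectodysplasin A of skin appendage development, was at 37.9 ± 7.15 and 37.1 ± 6.45 (SD, n = 4), with a log2 fold change of 0.03 ± 0.19 (SE).

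The 11 other counted ligands had too few reads to be tested. Over the 4 libraries of each group, Lta had 30 counts in 4T1-Sca1+ and 35 in 4T1-Sca1-, Tnfsf10 (TRAIL) had 23 and 14, Tnfsf13b (BAFF) had 14 and 10, and Ltb had 12 and 5. Fasl, Cd70, Tnfsf4, Tnfsf8, Tnfsf12, Tnfsf14 and Tnfsf18 stayed at 3 or fewer counts in every library. A difference in these genes was not detectable at this depth.

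The plot of normalized counts by library shows these ligands with the receptors and adaptors that changed.

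**Figure D2:**
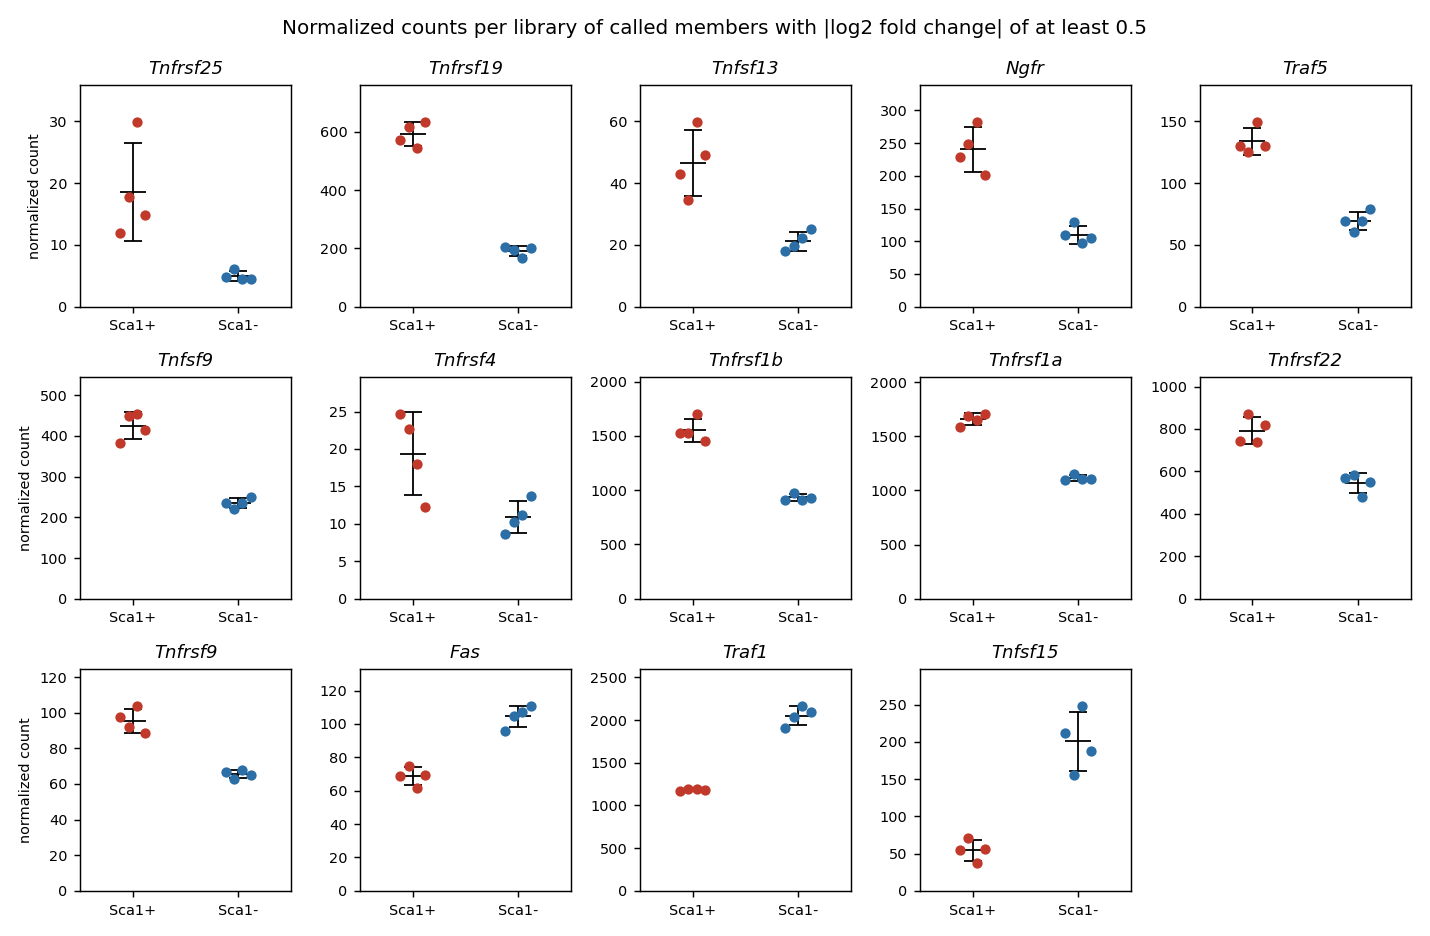
Normalized counts in each of the 8 libraries for the 14 called members that differed by 0.5 or more on the log2 scale, 1 panel per gene with its own axis from 0. Points are single libraries, with the mean and SD of each group. The groups stand apart for each of these genes but Tnfrsf4, whose lowest 4T1-Sca1+ library (12.3) lay below the highest 4T1-Sca1- library (13.7).

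Tnfrsf1a and Tnfrsf1b, which encode the receptors of TNF and of the Lta homotrimer, were both higher. Tnfrsf1a (TNFR1, with a death domain, ENSMUSG00000030341, chromosome 6, 125349362 to 125362484) had normalized counts of 1581, 1690, 1653 and 1706 in 4T1-Sca1+ and 1098, 1155, 1102 and 1107 in 4T1-Sca1- libraries. The spread within a group was small beside the gap between the groups, and the log2 fold change was 0.58 ± 0.05 (SE, adjusted p = 8.16e-09, edgeR). Tnfrsf1b (TNFR2, without a death domain, ENSMUSG00000028599, chromosome 4, 145213463 to 145246870) was counted at 1522, 1523, 1702 and 1456 against 914, 979, 912 and 930. This was a log2 fold change of 0.74 ± 0.05 (SE, adjusted p = 2.38e-09, edgeR). Per kb, Tnfrsf1a exceeded Tnfrsf1b in every library, by 1.58 ± 0.13 times in 4T1-Sca1+ and 1.76 ± 0.02 times in 4T1-Sca1- cells (SD, n = 4). This order depends on the exon lengths used, 2591 and 3818 bp, which join all annotated exons of each gene. Without division by length, Tnfrsf1b was the higher of these genes in 4T1-Sca1+ replicate 3 (1702 against 1653).

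The other death domain receptors split by direction. Ngfr (the neurotrophin receptor p75, chromosome 11, 95568818 to 95587735) was counted at 229, 248, 282 and 201 in 4T1-Sca1+ and 109, 129, 96.8 and 105 in 4T1-Sca1- libraries, without overlap, for a log2 fold change of 1.13 ± 0.11 (SE, adjusted p = 1.76e-07, edgeR). Tnfrsf21 (DR6) rose less, from 910 ± 48.8 to 1222 ± 24.9 (SD, n = 4), a log2 fold change of 0.44 ± 0.05 (SE, adjusted p = 8.56e-07, edgeR).

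Fas and Tnfrsf10b, both known for triggering apoptosis, were lower in 4T1-Sca1+ cells. Fas (chromosome 19, 34290666 to 34327772) was counted at 68.5, 74.9, 61.8 and 69.1 in 4T1-Sca1+ and 95.5, 105, 107 and 111 in 4T1-Sca1- libraries. The groups were apart, and the log2 fold change was -0.59 ± 0.11 (SE, adjusted p = 0.000228, edgeR). Tnfrsf10b, the receptor of TRAIL that carries a death domain in the mouse, was at 1166, 1145, 1044 and 1044 against 1252, 1185, 1310 and 1252. Its groups came within a narrow margin of each other, with a log2 fold change of -0.17 ± 0.05 (SE, adjusted p = 0.0106, edgeR). With library totals as the only scaling this call was lost, at -0.13 (adjusted p = 0.0515, edgeR). Edar, the receptor of ectodysplasin A, had 4 counts in 4T1-Sca1+ and 3 in 4T1-Sca1- libraries and was not tested.

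Among the receptors without a death domain, 5 of 9 tested were higher and the other 4 were not called (edgeR). The called share was thus 55.6%, all of it higher, against 61.5% called and 31.3% higher among all genes. Tnfrsf19 (TROY, known from hair follicle and nervous system development, ENSMUSG00000060548, chromosome 14, 60963875 to 61046490) had the lowest adjusted p of all members. It was counted at 573, 615, 546 and 634 in 4T1-Sca1+ and 206, 193, 168 and 201 in 4T1-Sca1- libraries. The lowest 4T1-Sca1+ library stood far above the highest 4T1-Sca1- library, and the log2 fold change was 1.63 ± 0.08 (SE, adjusted p = 8.53e-12, edgeR).

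Tnfrsf4 (OX40, a costimulatory receptor of T cells) was scarce, at 24.7, 22.7, 17.9 and 12.3 in 4T1-Sca1+ and 8.60, 10.3, 11.1 and 13.7 in 4T1-Sca1- libraries. The groups overlapped, and its log2 fold change was 0.84 ± 0.28 (SE, adjusted p = 0.016, edgeR). The call was lost with DESeq2 (adjusted p = 0.0585), without 4T1-Sca1+ replicate 1 (adjusted p = 0.0607, edgeR) and without 4T1-Sca1- replicate 1 (adjusted p = 0.0583, edgeR).

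Ltbr, the lymphotoxin beta receptor, was among the most abundant members, at 2247, 2282, 2588 and 2280 in 4T1-Sca1+ and 1821, 2070, 1919 and 2009 in 4T1-Sca1- libraries. The groups did not overlap, and the log2 fold change was 0.28 ± 0.05 (SE, adjusted p = 0.000248, edgeR). With offsets corrected for GC content the call was lost, at 0.0053 (adjusted p = 0.91, edgeR). Its ligand genes were scarce, since Ltb and Lta were below the filter and Tnfsf14 had 0 and 2 counts. Ltbr and Tnfrsf1a lie 35.5 kb apart on chromosome 6.

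Tnfrsf12a (Fn14, the receptor of TWEAK, the product of Tnfsf12) had the highest level per exon length of the tested members. Its normalized counts were 7229, 6914, 8136 and 7708 in 4T1-Sca1+ and 6739, 7510, 6892 and 6828 in 4T1-Sca1- libraries. The groups overlapped, and the log2 fold change of 0.11 ± 0.05 (SE) was not called (adjusted p = 0.0675, edgeR). Its direction depended on the scaling, since it was called lower with GC-corrected offsets, at -0.09 (adjusted p = 0.0287, edgeR), and higher with library totals alone, at 0.16 (adjusted p = 0.0123, edgeR).

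The receptors of low level with no call were Cd40, Tnfrsf11a and Tnfrsf26. Cd40 was at 29.9 ± 1.34 against 27.1 ± 2.56 and Tnfrsf11a (RANK, the receptor by which RANKL acts on mammary epithelium and osteoclasts) at 23.9 ± 2.92 against 20.3 ± 5.16 (SD, n = 4). Their log2 fold changes were 0.15 ± 0.18 and 0.24 ± 0.22 (SE). Tnfrsf26 had -0.34 ± 0.24 (SE).

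Tnfrsf14 (HVEM) fell below the filter with 59 counts in 4T1-Sca1+ and 17 in 4T1-Sca1- libraries, and when no filter was applied its log2 fold change was 1.60 ± 0.42 (SE, adjusted p = 0.00102, edgeR). Tnfrsf18 (GITR) had 9 and 7 counts and Tnfrsf13c (the BAFF receptor) had 7 and 2. Tnfrsf8 and Eda2r stayed at 3 or fewer counts in each library.

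The decoy receptor genes of TRAIL, Tnfrsf22 and Tnfrsf23, lie 16.1 kb apart on chromosome 7 and changed in opposite directions. Tnfrsf22 (143634806 to 143649661) was counted at 741, 871, 740 and 817 in 4T1-Sca1+ and 567, 584, 479 and 548 in 4T1-Sca1- libraries, a log2 fold change of 0.55 ± 0.07 (SE, adjusted p = 2.75e-06, edgeR). Tnfrsf23 (143665809 to 143685872) was counted at 390, 456, 368 and 434 against 537, 537, 539 and 621, a log2 fold change of -0.42 ± 0.07 (SE, adjusted p = 9.97e-05, edgeR). Neither gene's groups overlapped. Per kb, Tnfrsf22 stood at 1.81 ± 0.05 times Tnfrsf23 in 4T1-Sca1+ and at 0.920 ± 0.102 times in 4T1-Sca1- cells (SD, n = 4), and the ranges did not overlap. These genes share 719 stretches of 50 bases, which are 17.3% of those of Tnfrsf22 and 18% of those of Tnfrsf23, so each value is uncertain to the extent that reads from shared stretches were assigned to one or the other. Tnfrsf26, which lies 6.08 kb from Tnfrsf22, was not called. Tnfrsf11b, encoding the soluble RANKL receptor osteoprotegerin, was at 12.6 ± 3.85 and 16.4 ± 6.32 (SD, n = 4), with a log2 fold change of -0.33 ± 0.32 (SE).

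Of the 7 TRAF genes, Traf5 rose, Traf1 fell and the other 5 were not called (28.6% called, against 61.5% of all genes). Traf1, an adaptor that binds Traf2 and is itself known as an NF-kappaB target, is at chromosome 2, 34941750 to 34961772 (ENSMUSG00000026875). It was counted at 1165, 1193, 1190 and 1177 in 4T1-Sca1+ and 1903, 2036, 2164 and 2097 in 4T1-Sca1- libraries. The 4T1-Sca1+ libraries were nearly equal and all far below the 4T1-Sca1- libraries, with a log2 fold change of -0.78 ± 0.05 (SE, adjusted p = 3.3e-10, edgeR). Traf2 was not called, at 767 ± 34.9 and 757 ± 20.7 (SD, n = 4) with a log2 fold change of 0.03 ± 0.05 (SE, adjusted p = 0.645, edgeR). The ratio of Traf1 to Traf2 per kb was 0.893 ± 0.043 in 4T1-Sca1+ and 1.57 ± 0.11 in 4T1-Sca1- cells.

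Traf5, which serves Cd40, Ltbr and other receptors, was counted at 130, 125, 150 and 130 in 4T1-Sca1+ and 69.7, 60.6, 69.0 and 78.8 in 4T1-Sca1- libraries. The groups were far apart, and the log2 fold change was 0.96 ± 0.11 (SE, adjusted p = 1.2e-06, edgeR).

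Tradd, which links Tnfrsf1a and Tnfrsf25 to their downstream kinases, was higher at 355 ± 22.5 against 255 ± 30.8 (SD, n = 4), a log2 fold change of 0.48 ± 0.08 (SE, adjusted p = 7.71e-05, edgeR). Fadd, the adaptor of Fas and the TRAIL receptor, had a log2 fold change of -0.12 ± 0.08 (SE, adjusted p = 0.208, edgeR). Ripk1, the kinase of the TNF receptor complex, had -0.04 ± 0.06 (SE, adjusted p = 0.56, edgeR). So among these death domain adaptors a difference was called for Tradd alone. Ripk1 shares 241 bp of exon with Serpinb6a on the opposite strand, and the library kit does not mark strand. Serpinb6a was lower, at 2828 ± 221 against 4545 ± 231 (SD, n = 4, log2 fold change -0.67, adjusted p = 1.99e-08, edgeR). Its share in the Ripk1 value was not tested.

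The most abundant TRAF genes were not called. Traf4, first isolated from breast carcinoma tissue, was counted at 3133, 3070, 3563 and 3216 in 4T1-Sca1+ and 2978, 3458, 3165 and 3290 in 4T1-Sca1- libraries, with a log2 fold change of 0.02 ± 0.05 (SE). Traf7 was counted at 4005, 3982, 4030 and 3674 against 3981, 4387, 4161 and 4466, with -0.10 ± 0.05 (SE, adjusted p = 0.0735, edgeR). In both genes the groups overlapped. With GC-corrected offsets both were called lower, Traf4 at -0.12 (adjusted p = 0.00475, edgeR), which turned its direction, and Traf7 at -0.17 (adjusted p = 0.000274, edgeR), and Traf7 was called lower under 5 alternatives in all. Traf3, a brake on noncanonical NF-kappaB signalling, had -0.01 ± 0.04 (SE). Traf6, which also serves Toll-like and interleukin-1 receptors, had 0.12 ± 0.05 (SE, adjusted p = 0.0641, edgeR) at 592 ± 14.1 against 549 ± 12.7 (SD, n = 4), and it was not called although its groups did not overlap. With GC-corrected offsets Traf6 was called higher, at 0.22 (adjusted p = 0.000405, edgeR).

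The name rule also takes in genes that are not TRAFs but were named for binding Traf3. Traf3ip1, a ciliary transport protein, had a log2 fold change of 0.15 ± 0.07 (SE, adjusted p = 0.0696, edgeR), and Traf3ip2, the adaptor of the interleukin-17 receptor, had -0.02 ± 0.06 (SE).

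**Figure D3:**
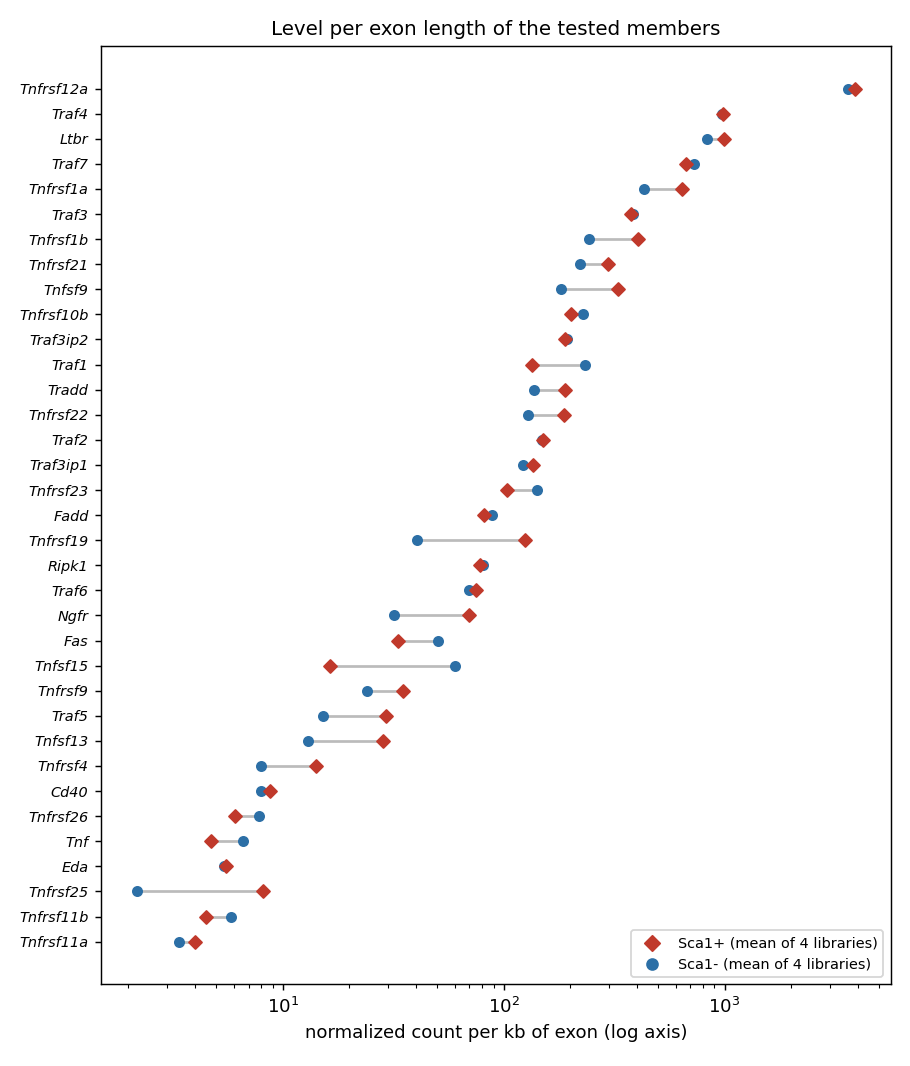
Mean normalized count per kb of exon (log axis) of each tested member in 4T1-Sca1+ (red diamonds) and 4T1-Sca1- libraries (blue circles), ordered by the mean of both groups. Tnfrsf12a is at the top, at 3750 per kb, and Tnfrsf11a at the bottom, at 3.69 per kb.

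Per kb of exon, the levels of the members spanned the range of the transcriptome. Tnfrsf12a, at a mean of 3750 normalized counts per kb, was at percentile 99.2 of the tested genes. It was followed by Traf4 at 982, Ltbr at 914, Traf7 at 696 and Tnfrsf1a at 535. In 4T1-Sca1+ libraries alone the levels of Traf4 and Ltbr were close to each other, at 986 and 998 per kb. Tnfrsf11a was lowest, at 3.69 per kb and percentile 2.82. The members with the largest fold changes were of low or middle level, whereas of the 5 most abundant only Ltbr and Tnfrsf1a were called.

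The promoter windows of the members were searched for the letters of known factor motifs. The windows were RefSeq's (GRCm38.p6), 250 bases before to 50 after a gene's start, and 45 of the 56 members had at least 1, for 50 windows in all. Both strands were searched for the STAT half-site pair TTCNNNGAA, the AP-1 site TGANTCA and the kappaB consensus. The STAT letters were in 10 of the 50 windows (20%) and in 8.3% of all 32851 windows. The AP-1 letters were in 14% against 7.81%, and the kappaB consensus in 8% against 4.51%. No test was made, and a match is neither a bound site nor a cause. Of the tested members with a window, the STAT letters were found in 5 of 11 that were higher, 1 of 4 that were lower and 1 of 12 that were not called. The matching shares among all higher, lower and not called genes are not given here. This split therefore has no background beside it and is not read as a link to the call.

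The sites of the 5 higher receptors and of Fas are printed 5′ to 3′ along the gene's strand, to show the letters by which these windows were counted, with the STAT match in capitals. They lie at chr6:125349473-125349502 (Tnfrsf1a, plus strand), chr4:145247032-145247061 (Tnfrsf1b, minus), chr14:61046838-61046867 (Tnfrsf19, minus), chr4:152116317-152116346 (Tnfrsf25, plus), chr4:150927853-150927882 (Tnfrsf9, plus) and chr19:34290556-34290585 (Fas, plus).
Tnfrsf1a: gcttccTTCCGTGAAattgacaacaggctt
Tnfrsf1b: agcgcattcaTTCCCGGAAgagatgctgga
Tnfrsf19: aaggcaggtgTTCGGAGAAacggcctaatt
Tnfrsf25: gggcctccacTTCTCAGAAggcatggctgc
Tnfrsf9: caacagctgaTTCCAAGAAacccttcagag
Fas: tcaaagcgatTTCTGGGAAgacctgaatag
The window with the STAT letters among members not called was that of Ripk1.

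A kappaB match was found in the windows of Tnfrsf9, which was higher, and of Traf3, which was not called. They are shown because the same letters were in the window of a gene that rose and in that of a gene that was not called. Windows follow RefSeq starts, and the Tnfrsf9 site lies inside the span that GENCODE M21 gives the gene (150914562 to 150946102). The STAT sites printed above for Tnfrsf9, Tnfrsf1a (span from 125349362) and Tnfrsf25 (span from 152115934) also lie inside the spans of their genes. The kappaB sites lie at chr4:150927946-150927975 (Tnfrsf9, plus strand) and chr12:111166350-111166379 (Traf3, plus), with the match in capitals.
Tnfrsf9: cagagcagctGGGGATTTCCcaggaggccc
Traf3: ggcggcccgcGGGGATTTCCagcgcgcgag
No tested member that was lower had this match in its window.

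Genes that act after the receptors were described from 3 lists, each with the members it shares counted in it. Of 37 tested genes of the TNF receptor signalling complex, 10 were higher and 14 were lower (64.9% called, about the 61.5% of all genes, edgeR), and the median log2 fold change was -0.07. Those that rose most were Ikbkg, the regulatory subunit NEMO of the IkappaB kinase (1302 ± 45.9 against 595 ± 38.7, SD, n = 4, log2 fold change 1.14 ± 0.06, SE), the kinase gene Map3k5 (0.77 ± 0.06) and the caspase inhibitor gene Xiap (0.57 ± 0.07). Those that fell most encode ubiquitin-linked regulators of the complex. Tnfaip3, which encodes the deubiquitinase A20, was at 2896 ± 68.0 against 5834 ± 216 (log2 fold change -1.0 ± 0.04, SE, adjusted p = 3.48e-12, edgeR). Birc3, a ubiquitin ligase of the complex, had -0.73 ± 0.08 (SE), and Tnip1, a partner of A20, had -0.63 ± 0.05 (SE). Ikbkg overlaps G6pdx by 418 bp on the opposite strand.

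The list of death receptor and necroptosis genes had 6 higher and 8 lower of 28 tested (50% called, below the 61.5% of all genes, edgeR), with a median of -0.06. With library totals as the only scaling the split was 7 higher and 6 lower. Among the rises were the log2 fold changes of 0.53 ± 0.08 for Casp6, which encodes an effector protease of apoptosis, and 0.43 ± 0.09 for Casp9, the initiator protease of the mitochondrial pathway (SE). The largest falls outside the members were -0.50 ± 0.06 for Bak1, a pore-forming protein of mitochondrial apoptosis, -0.49 ± 0.14 for Cycs, which encodes cytochrome c, and -0.31 ± 0.05 for Mlkl, the effector of necroptosis (SE).

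The known TNF and NF-kappaB targets were mostly lower. Of 45 tested, 7 were higher and 32 were lower (86.7% called against 61.5% of all genes, edgeR), and the median log2 fold change was -0.54, against 0.0074 for all tested genes. Without the members in the list, 5 were higher and 30 lower of 40 tested, with a median of -0.55. The falls were led by chemokine genes, Cxcl3 (128 ± 25.6 against 587 ± 27.0, SD, n = 4, log2 fold change -2.18 ± 0.10, SE), Cxcl10 (-2.04 ± 0.12) and Cxcl2 (-2.0 ± 0.14). The acute phase and antimicrobial genes Saa3 (2.39 ± 0.29) and Lcn2 (2.10 ± 0.06) and the IkappaB family gene Bcl3 (0.55 ± 0.09) were those that rose most. Among the members of this list, Tnfsf9 and Tnfrsf9 rose, Traf1 and Fas fell, Tnf was not called and Ltb was not tested. Tnfaip3 and Birc3 are in this list as well as in that of the receptor complex, so these lists are not separate counts.

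**Figure D4:**
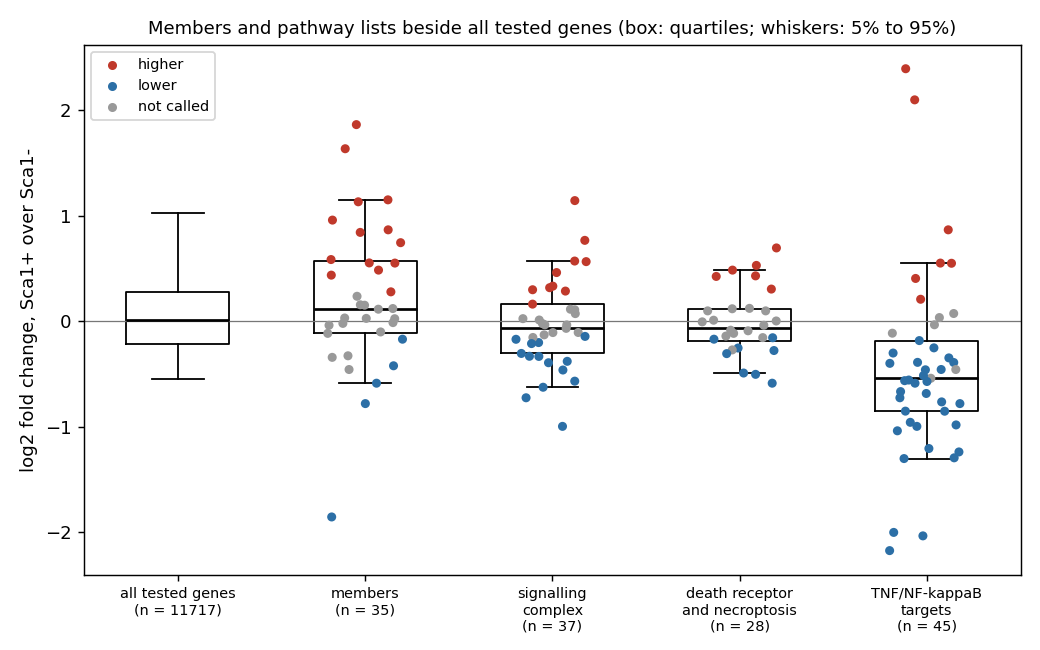
Log2 fold change (4T1-Sca1+ over 4T1-Sca1-) of each tested gene of the members and of the 3 pathway lists, with boxes for the quartiles and a line at each median, beside all 11717 tested genes. Points are coloured by call. The members centre on 0.12 and the TNF and NF-kappaB targets on -0.54, where 32 of 45 genes were lower.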

How the data were processed

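RNA of 4 4T1-Sca1+ and 4 4T1-Sca1- libraries was isolated with RNeasy columns, made into libraries with the TruSeq RNA v2 kit, which does not mark strand, and sequenced on an Illumina NextSeq instrument. The submitters' processing notes name cutadapt 1.16, STAR 2.5.3a and the build GRCm38 (mm10); the counting tool, annotation and use of strand are not given in the sources used here. The authors deposited raw counts for 16341 genes and a normalized signal table of 15372 genes, which equalled the counts divided by median-of-ratios size factors. Both tables held only columns of these libraries.

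Counts were tested with edgeR 4.0.16 in R 4.3.3 (filterByExpr, TMM scaling, two-sided quasi-likelihood test, no covariate), with Benjamini-Hochberg adjustment over all 11717 tested genes. Genes with an adjusted p under 0.05 were called. Standard errors are the log2 fold change divided by the square root of F. Normalized counts are counts over size factors, printed per library or as mean ± SD. Per kb values use exon lengths of GENCODE M21, which gave symbols and positions and held 16202 of the genes. These lengths join all annotated exons of a gene, which need not be those of the transcripts present, so levels and ratios between genes depend on them. Counts carry no molecular identifiers. Alternatives were DESeq2 1.42.0, limma 3.58.1 (voom, and log2(value + 1) of the signal table), other scalings, filters and thresholds, a replicate block and leaving out each library. The fits were also run on simulated data with a common spread and far fewer changed genes than were called here. That run therefore does not bear on scaling or on the share of genes called in these data.

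The members, gene lists, motifs and tests were chosen with earlier results of these data known. Values in every library were given for called members that differed by 0.5 or more on the log2 scale, the 5 members highest per kb and their ligand or receptor partners; from each list, the 3 called genes highest and the 3 lowest in fold change that are not members were named. A gene that this rule names is not reported here.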

Additional observations from a re-analysis of the deposited data

Results flagged for a closer look

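In 6 of 108 groups of 4 libraries examined over the members and named genes, the highest or lowest library stood apart from the other three by a gap over the range above Dixon's 95% critical value. Chance alone would give about 5.4. Among the 4T1-Sca1+ libraries these were replicate 2 for Tnfrsf11b (6.90 normalized counts, the others 13.7 to 15.0), replicate 4 for Traf7 (3674, the others 3982 to 4030), replicate 3 for Ltbr (2588, the others 2247 to 2282) and replicate 3 for Tnfaip3 (2795, the others 2915 to 2937). Among the 4T1-Sca1- libraries they were replicate 2 for Tnfrsf1a (1155, the others 1098 to 1107) and replicate 4 for Tnfrsf23 (621, the others 537 to 539). Ltbr, Tnfaip3, Tnfrsf1a and Tnfrsf23 kept direction and call without each library in turn, and Tnfrsf11b stayed not called.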

How the results depend on the processing

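Of 19 called members, 16 kept direction and call under every alternative that gave a value, and 0 reversed. Ltbr lost the call with GC-corrected offsets, Tnfrsf10b with library totals as the only scaling and at an adjusted p under 0.01, and Tnfrsf4 with DESeq2, without 4T1-Sca1+ replicate 1, without 4T1-Sca1- replicate 1 and at an adjusted p under 0.01. With GC-corrected offsets 15 members were higher and 8 lower, beside 3968 higher and 3661 lower of the 11616 genes tested in that fit. Among called genes that differed by 1 or more on the log2 scale, the counts of higher and lower genes were 4 and 1 for members, 1 and 0 for the receptor complex, 0 and 0 for the death list and 2 and 8 for the targets. The share of all genes at this cut is not given here, so these counts have no background beside them. Without each library in turn, 14 to 16 members were higher and 5 to 6 lower. The filter was applied anew in each of these fits, so the members tested can differ from those of the main fit. These counts therefore do not show a lost call such as that of Tnfrsf4. Of the 16 members not called, 5 passed under some alternatives, and leaving out 1 library was enough for Traf3ip1 (0.21 without 4T1-Sca1+ replicate 3), Tnfrsf12a (0.15 without 4T1-Sca1+ replicate 2, 0.14 without 4T1-Sca1- replicate 2) and Traf7 (-0.12 without 4T1-Sca1+ replicate 3, -0.14 without 4T1-Sca1- replicate 1). Traf6 passed with 3 of the other scalings and with at least 10 counts in every library, up to 0.22. A change of sign was seen in 6. With GC-corrected offsets Tnfrsf12a was at -0.0855 and Traf4 at -0.12, both called, and Ripk1 was at 0.0731. Library totals gave 0.00375 for Ripk1, 0.0292 for Traf3 and 0.0215 for Traf3ip2, and upper-quartile scaling gave 0.0158 and 0.00837 for the last 2. The ranges without each library in turn were -0.0259 to 0.0536 for Traf4, -0.0376 to 0.00386 for Traf3 and -0.0733 to 0.141 for Eda. The causes were not tested. Libraries of the same number did not deviate together (correlations -0.15 to 0.096). This cannot settle whether the numbers pair them, since libraries of 1 sort need not share a deviation. With the replicate block 14 members were higher and 5 lower. Depth limits the 17 counted members below the filter.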
